A study of Mus musculus with 11 samples.

Results

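The genes described here encode cation channels of a pair of families. The list names 9 of them: Trpc1, Trpc4, Trpc5, Trpc6 and Trpc7 of the canonical transient receptor potential (TRPC) family, and Asic1, Asic2, Asic3 and Asic4 of the acid-sensing ion channel (ASIC) family. Of these, 8 (5 TRPC and 3 ASIC genes) were measured on an array feature paired with a single gene symbol, out of 30142 genes measured in this way. Asic1 was not analysed here. The features are TC0900002869.mm.1 (Trpc1), TC0300000407.mm.1 (Trpc4), TC0X00003127.mm.1 (Trpc5), TC0900000066.mm.1 (Trpc6), TC1300002084.mm.1 (Trpc7), TC1100003353.mm.1 (Asic2), TC0500000214.mm.1 (Asic3) and TC0100000660.mm.1 (Asic4). The channels were followed through 3 tissues of wildtype C57B6 mice, male and female, aged 2 months: carotid body (n = 3 arrays), adrenal medulla (n = 4) and superior cervical ganglion (n = 4). The carotid body is the arterial oxygen and acid sensor, the adrenal medulla the part of the adrenal gland that releases adrenaline and noradrenaline, and the ganglion a cluster of sympathetic neurons. Each carotid body array held RNA pooled from 10 mice, and each array of the other tissues RNA pooled from 3 mice, so the spread and the p-values are over pools, and the labels do not say how mice were divided among them. Whole tissue was hybridised, so fewer cells of a type and less RNA per cell cannot be told apart.

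TRPC channels are non-selective cation channels that let sodium and calcium into the cell, and most are opened when a Gq-coupled receptor activates phospholipase C. TRPC1, TRPC4 and TRPC5 form a subgroup that can assemble together, and TRPC6 and TRPC7 belong to another that is opened by diacylglycerol. ASIC subunits belong to the same superfamily as the epithelial sodium channel and assemble as trimers that open when extracellular pH falls. In the rat, ASIC3 and several TRPC proteins have been described in the carotid body.

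Of the 8 measured genes 7 matched a window in the RefSeq promoter table (build GRCm38.p6) by symbol. The windows of Trpc5, Asic2, Trpc7, Trpc6 and Trpc1 are shown, since these genes differed between the tissues; Asic4 also differed. Each sequence is the 250 bases before the annotated start, 5′ to 3′ on the gene's strand, and Asic2 has a pair of annotated starts. Capitals mark ACGTG or GCGTG on either strand, the core letters of the hypoxia response element.
Trpc5 (chrX:144688181-144688430, minus strand): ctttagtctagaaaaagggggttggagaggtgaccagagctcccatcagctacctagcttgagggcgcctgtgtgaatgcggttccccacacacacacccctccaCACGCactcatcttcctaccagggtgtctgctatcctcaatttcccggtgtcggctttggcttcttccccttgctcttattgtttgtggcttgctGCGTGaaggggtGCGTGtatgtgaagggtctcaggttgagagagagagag
Asic2, upstream start (chr11:81968397-81968646, minus strand): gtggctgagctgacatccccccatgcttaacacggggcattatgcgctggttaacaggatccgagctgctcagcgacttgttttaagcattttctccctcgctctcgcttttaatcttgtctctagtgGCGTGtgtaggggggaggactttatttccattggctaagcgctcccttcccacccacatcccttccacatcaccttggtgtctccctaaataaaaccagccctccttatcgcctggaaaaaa
Asic2, downstream start (chr11:81152904-81153153, minus strand): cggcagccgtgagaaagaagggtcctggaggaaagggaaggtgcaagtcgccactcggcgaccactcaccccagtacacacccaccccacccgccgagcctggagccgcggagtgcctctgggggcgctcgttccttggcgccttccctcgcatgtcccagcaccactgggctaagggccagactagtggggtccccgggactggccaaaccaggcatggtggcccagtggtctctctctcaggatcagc
Trpc7 (chr13:56895790-56896039, minus strand): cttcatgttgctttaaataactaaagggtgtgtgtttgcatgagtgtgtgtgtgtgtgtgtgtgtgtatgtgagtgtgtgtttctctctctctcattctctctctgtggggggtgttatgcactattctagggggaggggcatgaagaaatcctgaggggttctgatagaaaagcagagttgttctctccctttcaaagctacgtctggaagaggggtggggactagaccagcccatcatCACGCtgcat
Trpc6 (chr9:8543892-8544141, plus strand): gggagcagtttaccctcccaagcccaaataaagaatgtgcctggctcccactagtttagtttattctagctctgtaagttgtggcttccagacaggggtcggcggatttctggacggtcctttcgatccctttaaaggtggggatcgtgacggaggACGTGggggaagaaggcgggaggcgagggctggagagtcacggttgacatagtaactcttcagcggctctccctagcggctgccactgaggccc
Trpc1 (chr9:95750349-95750598, minus strand): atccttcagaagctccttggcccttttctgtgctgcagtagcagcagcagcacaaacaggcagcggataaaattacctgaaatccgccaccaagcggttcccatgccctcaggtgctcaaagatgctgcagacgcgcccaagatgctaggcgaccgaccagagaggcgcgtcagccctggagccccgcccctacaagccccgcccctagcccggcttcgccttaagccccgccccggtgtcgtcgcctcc
The Trpc5 window held 3 GCGTG matches. The Trpc7 and upstream Asic2 windows held 1 GCGTG each, the Trpc6 window 1 ACGTG, and the Trpc1 and downstream Asic2 windows neither. Of 32536 distinct windows of this length in the table, 28.3% held GCGTG, 16.7% ACGTG and 38.8% at least 1 of these. The Trpc1 window held 3 matches to GGGCGG, the GC box, which 33.0% of all windows contain. Other motifs were searched on both strands and had 0 matches in the 6 windows. Of all windows, 12.3% held TATAAA. The cyclic AMP response element TGACGTCA was in 1.56%. The E-box form CAGCTG was in 13.1%. The GATA form AGATAA was in 9.97%. No match overlapped another in these windows. G and C made up 54.4% of the Trpc5 window, 51.2% and 66.4% of the upstream and downstream Asic2 windows, 47.6% of the Trpc7, 56.4% of the Trpc6 and 62.8% of the Trpc1 window, against a median of 52.4%.

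Levels are log2 signals. A signal was called above background when it exceeded a bound for its tissue (5.38 in carotid body, 5.35 in adrenal medulla, 5.45 in ganglion), set so that 95 percent of 349 vomeronasal receptor and keratin-associated protein genes, taken as silent, lay under it. By tissue means, 17062 genes were above the bound in carotid body, 16364 in adrenal medulla and 16364 in ganglion. Replicate arrays correlated across genes at a Pearson's r of 0.985 to 0.992 in carotid body, 0.994 to 0.996 in adrenal medulla and 0.989 to 0.996 in ganglion. Differences were tested with limma over all genes and called at an adjusted p under 0.05 and at least 2-fold.

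Lists of marker genes were used to check each tissue against its label. Noradrenergic genes had list means of 13.97 to 15.27 in carotid body, 15.89 to 16.13 in adrenal medulla and 15.71 to 16.30 in ganglion, with none of the 6 measured under the bound. Carotid body arrays also carried fibroblast genes at 13.84 to 13.98, against 8.42 to 8.54 in adrenal medulla and 10.22 to 10.46 in ganglion. Glial genes had list means of 10.46 to 10.84 in carotid body, 7.92 to 8.10 in adrenal medulla and 10.22 to 10.98 in ganglion. Adipocyte genes stood at 9.16 to 9.89 in carotid body, 6.04 to 6.17 in adrenal medulla and 6.38 to 6.71 in ganglion, and macrophage and mast cell genes at 8.33 to 8.98, 6.88 to 7.14 and 6.99 to 7.57. Genes of the adrenal cortex, the steroid-secreting layer around the medulla, had list means of 4.90 to 5.29 in carotid body, 15.14 to 15.64 in adrenal medulla and 4.78 to 5.33 in ganglion, with 0 of 8 under the bound in adrenal medulla.

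**Figure D1:**
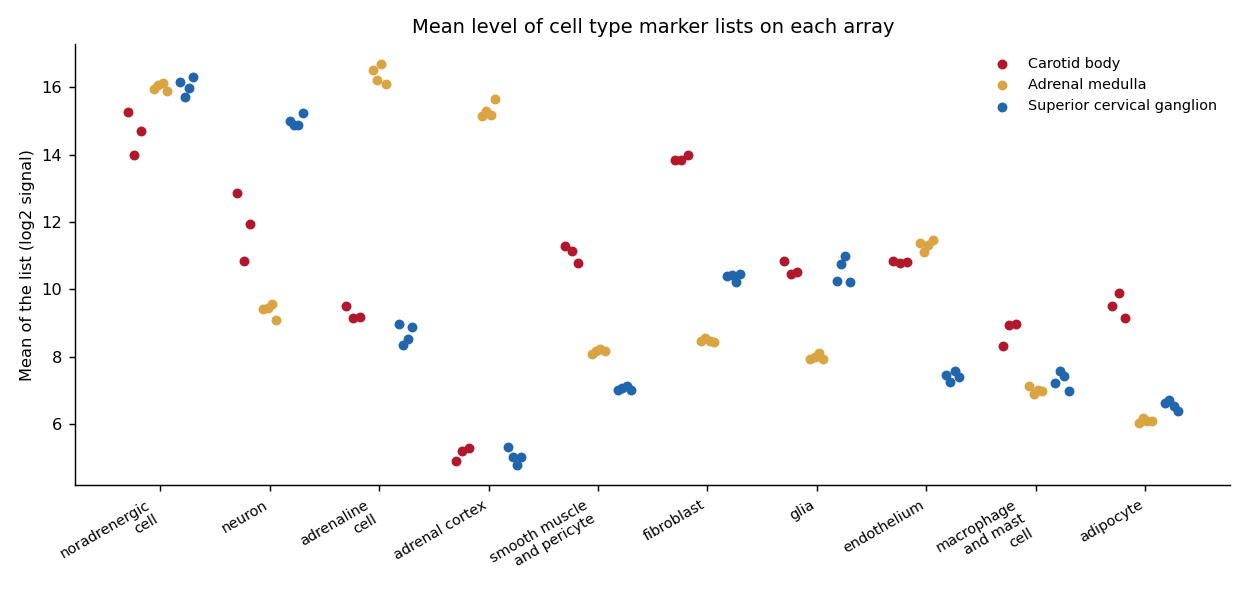
Mean log2 signal (vertical axis) of marker lists for 10 cell types (horizontal axis) on each array of the 3 tissues. Noradrenergic genes are above 13 on every array, neuron genes are highest in ganglion, adrenal cortex genes are high in adrenal medulla alone, and endothelial genes are lowest in ganglion.

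Trpc5 was high in carotid body and adrenal medulla, Asic4 in adrenal medulla, and Asic2, Trpc1, Trpc6 and Trpc7 in ganglion. Of the 8 channel genes, 0 were higher and 1 lower (Asic4) in carotid body than in the medulla, where 6.06% of all genes were higher and 4.95% lower. Relative to ganglion, 1 was higher (Trpc5) and 3 lower (Trpc6, Trpc7 and Asic2) in carotid body, where 5.61% of all genes were higher and 8.28% lower. In adrenal medulla 2 were higher (Trpc5 and Asic4) and 4 lower (Trpc1, Trpc6, Trpc7 and Asic2) than in ganglion, where 5.72% of all genes were higher and 7.50% lower. The channel genes include Trpc4 and Asic3, which were at background. Among the 17764 genes above the bound in at least 1 tissue, 10.2% were higher and 8.37% lower in the first comparison, 9.50% and 14.0% in the second, and 9.69% and 12.7% in the third. The 3 comparisons share arrays. The median difference of the 8 genes was 0.08, -0.41 and -0.64 in these comparisons, beside 0.05, -0.02 and -0.08 over all genes. The share of called genes that were higher depended on the scaling of the arrays: it was 55.1% for carotid body over adrenal medulla (44.5% after median centring), 40.4% for carotid body over ganglion (51.2% after repeated quantile normalization) and 43.3% for adrenal medulla over ganglion (53.9% after repeated quantile normalization). The channel genes called in each direction were equally many under all 21 alternatives run.

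**Figure D2:**
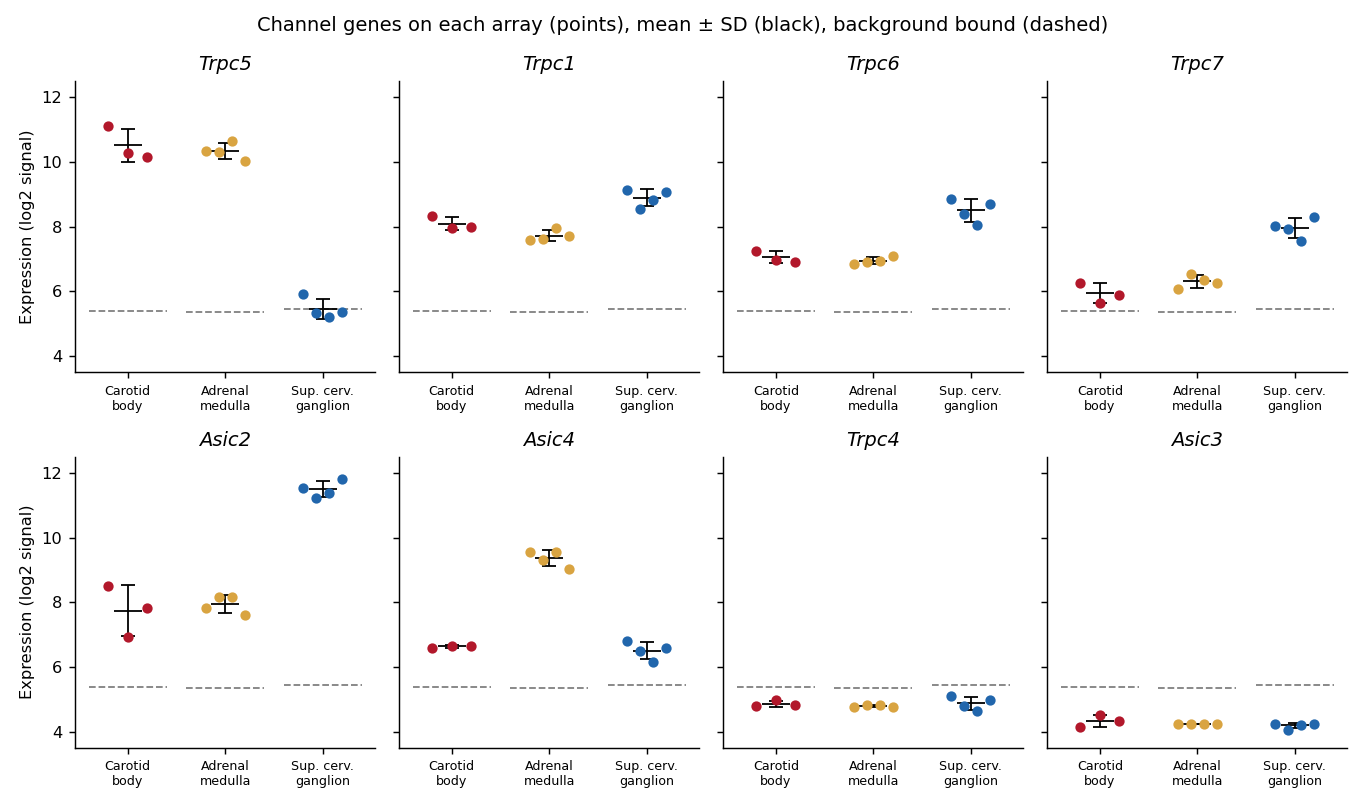
Level of each channel gene on every array (log2 signal, vertical axis) in the 3 tissues, from carotid body to ganglion. Points are arrays, black bars the mean ± SD, dashed lines the background bound of each tissue. Trpc5 sits at 10.51 in carotid body and 10.33 in adrenal medulla against 5.45 in ganglion, Asic4 is high in adrenal medulla alone, and Asic2, Trpc1, Trpc6 and Trpc7 are highest in ganglion.

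Trpc5, a calcium-permeable channel of the TRPC1, TRPC4 and TRPC5 subgroup, was high in carotid body and adrenal medulla and near background in ganglion. Its level was 11.10, 10.28 and 10.15 in carotid body and 10.34, 10.31, 10.64 and 10.02 in adrenal medulla, against 5.92, 5.31, 5.22 and 5.36 in ganglion. All 7 arrays of the first pair of organs lay above all 4 ganglion arrays, with a gap of 4.23 between carotid body and ganglion and 4.11 between adrenal medulla and ganglion. In ganglion 3 of 4 arrays lay under the bound.

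With those arrays set to the bound, Trpc5 was at least 30.8-fold higher in carotid body than in ganglion (fitted log2 difference 5.06, SE 0.24, limma adjusted p = 1.56e-07). It was at least 27.2-fold higher in adrenal medulla than in ganglion (4.88, SE 0.23, limma adjusted p = 3.25e-08). Carotid body and adrenal medulla differed by 0.18, with a 95% interval of -0.36 to 0.72 (limma adjusted p = 0.643), and their arrays overlapped. The interval holds differences of either sign.

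Marker lists of endothelium and of smooth muscle and pericytes also had higher means in carotid body and adrenal medulla than in ganglion. Of 8 endothelial genes, 8 were called higher in carotid body than in ganglion and 7 in adrenal medulla than in ganglion, with list means of 10.77 to 10.84 on carotid body arrays, 11.11 to 11.47 on adrenal medulla arrays and 7.25 to 7.57 on ganglion arrays. Of 10 smooth muscle and pericyte genes 8 and 5 were called higher in these comparisons. Their list means were 10.78 to 11.29 in carotid body, 8.08 to 8.23 in adrenal medulla and 7.01 to 7.14 in ganglion. The part of either cell type in the Trpc5 difference was not tested. Adrenal cortex genes had a list mean of 15.14 to 15.64 on adrenal medulla arrays. On carotid body arrays the list mean was 4.90 to 5.29, with 6 of 8 genes under the bound. For Trpc5 the mean ± SD was 10.51 ± 0.52 on carotid body arrays and 10.33 ± 0.25 on those of adrenal medulla. The part of cortex cells in the Trpc5 level of either organ was not tested. Against ganglion, neuron genes ran opposite to Trpc5: all 10 had lower levels in both other organs. Relative to the medulla, carotid body showed higher calls for 7 of these 10, while Trpc5 differed by 0.18 and was not called. The part of neurons in the Trpc5 level of any tissue was not tested.

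**Figure D3:**
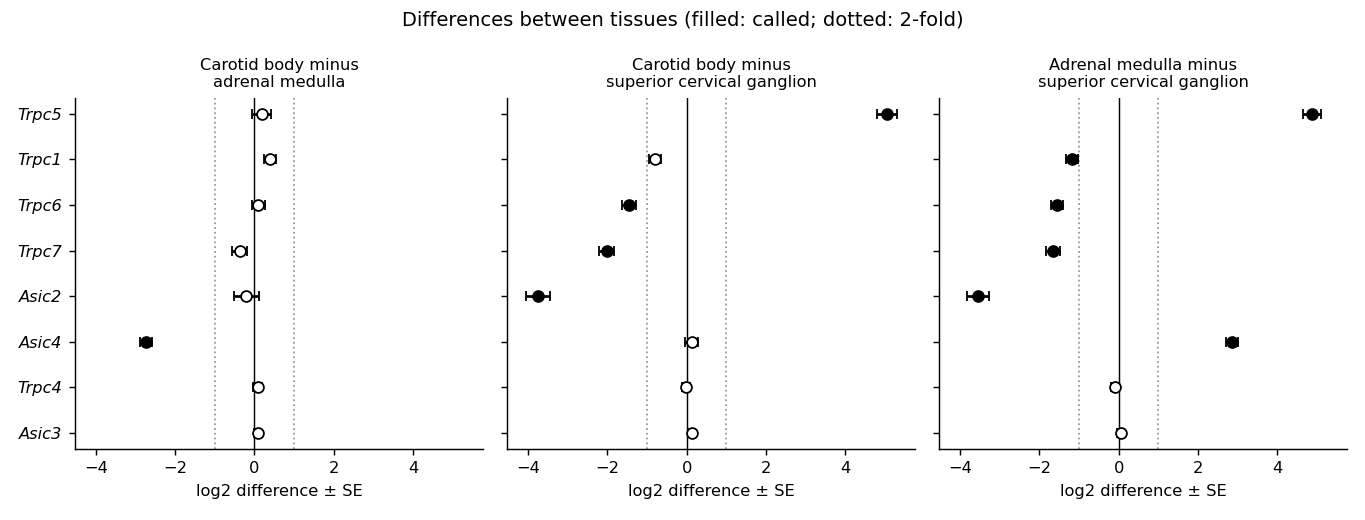
Difference in each channel gene between tissues (log2, horizontal axis, ± SE): carotid body over adrenal medulla, carotid body over ganglion, and adrenal medulla over ganglion. Filled points were called and dotted lines mark 2-fold. Asic4 alone is filled in the first panel, at -2.73, and Trpc5 stands far to the right of the others in both comparisons with ganglion, at 5.06 and 4.88.

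Trpc1, a widely expressed subunit that forms channels with other TRPC proteins, was highest in ganglion. It measured 8.33, 7.96 and 7.99 in carotid body, 7.58, 7.61, 7.95 and 7.69 in adrenal medulla, and 9.14, 8.56, 8.81 and 9.06 in ganglion. The ganglion arrays lay above all others, while the carotid body and adrenal medulla arrays were separated by only 0.01. Trpc1 was lower in adrenal medulla than in ganglion by 1.18 (SE 0.14, limma adjusted p = 6.61e-05). Carotid body also lay below ganglion, with a difference of -0.80 (SE 0.16, limma adjusted p = 0.00202), which passed the p threshold but not the 2-fold limit and was not called. The difference between carotid body and adrenal medulla was 0.38 (limma adjusted p = 0.0926).

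Trpc6 and Trpc7, the diacylglycerol-sensitive channels, were lower in both other organs than in ganglion. Trpc6, which is well known from vascular smooth muscle and kidney podocytes, measured 7.26, 6.97 and 6.91 in carotid body, 6.85, 6.90, 6.95 and 7.09 in adrenal medulla, and 8.86, 8.38, 8.06 and 8.69 in ganglion. The ganglion arrays did not overlap with the others, which overlapped among themselves. Trpc6 was 2.74-fold lower in carotid body than in ganglion (-1.45, SE 0.17, limma adjusted p = 6.4e-05) and 2.93-fold lower in adrenal medulla than in ganglion (-1.55, SE 0.16, limma adjusted p = 1.72e-05). The smooth muscle and pericyte genes had list means that were highest in carotid body and lowest in ganglion. The part of these cells in the Trpc6 differences was not tested.

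Trpc7 measured 6.26, 5.64 and 5.89 in carotid body, 6.06, 6.52, 6.36 and 6.27 in adrenal medulla, and 8.01, 7.93, 7.56 and 8.29 in ganglion. The ganglion arrays lay above all others, and every array was above the bound, those of carotid body by less than 1 log2 unit. It was 4.05-fold lower in carotid body than in ganglion (-2.02, SE 0.19, limma adjusted p = 1.23e-05) and 3.13-fold lower in adrenal medulla than in ganglion (-1.65, SE 0.17, limma adjusted p = 2.14e-05). Between carotid body and adrenal medulla it differed by -0.37 (limma adjusted p = 0.174), with a 95% interval of -0.79 to 0.04, and the arrays overlapped.

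Trpc4, the closest relative of Trpc5, was under the bound on all 11 arrays, with means of 4.86 ± 0.10 in carotid body, 4.78 ± 0.03 in adrenal medulla and 4.88 ± 0.20 in ganglion (SD, n = 3, 4 and 4). No fold is given for it, because both sides of every comparison were at background.

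Asic2, a subunit found throughout the nervous system that joins other ASIC subunits, had its highest level in ganglion. It measured 8.50, 6.92 and 7.81 in carotid body, 7.83, 8.17, 8.17 and 7.61 in adrenal medulla, and 11.54, 11.24, 11.37 and 11.81 in ganglion. The lowest ganglion array exceeded the highest carotid body array by 2.73. Asic2 was 13.4-fold lower in carotid body than in ganglion (-3.75, SE 0.31, limma adjusted p = 6.08e-06) and 11.7-fold lower in adrenal medulla than in ganglion (-3.54, SE 0.29, limma adjusted p = 2.62e-06).

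The carotid body arrays of Asic2 spread over 1.59, against 0.56 in adrenal medulla and 0.57 in ganglion. On carotid body replicates 1, 2 and 3 the mean of 10 neuron genes was 12.86, 10.85 and 11.95, and that of 6 noradrenergic genes 15.27, 13.97 and 14.69. Replicate 1 was highest and replicate 2 lowest for Asic2 and for both lists. Replicate 1 also had the highest carotid body level of Trpc1, Trpc5, Trpc6 and Trpc7. Leaving out 1 array at a time gave Asic2 differences of -4.13 to -3.33 for carotid body minus ganglion. Neuron genes averaged 11.89 ± 1.01 in carotid body, 9.37 ± 0.21 in adrenal medulla and 14.99 ± 0.17 in ganglion, and all 10 stood above the bound in every tissue. Of the 6 noradrenergic genes, carotid body had 1 above and 5 below ganglion. The part of either cell type in the levels of Asic2, Trpc1, Trpc6 and Trpc7 was not tested. Relative to the medulla, 7 of 10 neuron genes were higher and 4 of 6 noradrenergic genes lower in carotid body, and Asic2 differed by -0.20, with a 95% interval of -0.89 to 0.48 (limma adjusted p = 0.683).

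Asic4, a subunit that forms no acid-gated current on its own, was highest in adrenal medulla. It measured 6.59, 6.65 and 6.66 in carotid body, 9.56, 9.32, 9.55 and 9.03 in adrenal medulla, and 6.79, 6.51, 6.15 and 6.58 in ganglion. All adrenal medulla arrays lay above all others, while carotid body and ganglion arrays overlapped. Asic4 was 6.64-fold lower in carotid body than in the medulla (-2.73, SE 0.16, limma adjusted p = 4.53e-07) and 7.25-fold higher in adrenal medulla than in ganglion (2.86, SE 0.15, limma adjusted p = 7.27e-08). Carotid body and ganglion differed by 0.13, with a 95% interval of -0.22 to 0.48 (limma adjusted p = 0.597).

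Lists of adrenaline cell and adrenal cortex genes moved with Asic4. Of 3 genes of adrenaline cells, 3 were lower in carotid body than in the medulla and 3 higher in adrenal medulla than in ganglion, with list means of 9.14 to 9.51 in carotid body, 16.10 to 16.68 in adrenal medulla and 8.35 to 8.96 in ganglion (none was under the bound in carotid body, and Pnmt alone was in ganglion). Of 8 adrenal cortex genes, 8 were called in the same directions, with list means of 4.78 to 5.33 in ganglion. Their parts in the Asic4 difference were not tested. Across adrenal medulla replicates 1 to 4 the cortex list mean was 15.14, 15.29, 15.17 and 15.64, and that of the adrenaline cell list 16.50, 16.22, 16.68 and 16.10. Replicate 4, with the lowest Asic4 level of the 4, had the highest cortex and the lowest adrenaline cell list mean. This was not particular to Asic4. Replicate 4 also had the lowest Trpc5 (10.02) and Asic2 (7.61) levels and the lowest noradrenergic, neuron and fibroblast list means. Its Trpc6 level (7.09) and endothelial list mean were the highest of the 4.

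Asic3, the acid sensor of sensory nerve endings, was under the bound on all 11 arrays. Its means were 4.32 ± 0.19 in carotid body, 4.24 in adrenal medulla and 4.19 ± 0.09 in ganglion (SD, n = 3, 4 and 4). The same value, 4.24, stood on 6 of the 11 arrays, including all 4 of adrenal medulla, and no fold is given. Asic5, a relative outside the list that responds to bile acids in the mouse, was likewise under the bound on every array, at means of 4.48 in carotid body, 4.43 in adrenal medulla and 4.52 in ganglion. At this sensitivity an absence of Trpc4, Asic3 or Asic5 transcripts cannot be told apart from a level below background.

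The genes that act with these channels were read from lists of known partners. Upstream of TRPC channels, 13 genes of Gq proteins and phospholipase C enzymes were measured. In carotid body 2 were higher and 2 lower than in the medulla, and 2 higher and 1 lower than in ganglion, while in adrenal medulla 2 were higher and 4 lower than in ganglion. Of all genes, 6.06% were higher and 4.95% lower in the first comparison, 5.61% and 8.28% in the second, 5.72% and 7.50% in the third. Of the list, 12 genes were above the bound in at least 1 tissue. Among all such genes the shares were 10.2% and 8.37%, 9.50% and 14.0%, and 9.69% and 12.7%. The same shares apply to the counts of the lists below. Plcb1, a Gq-activated phospholipase C, averaged 8.06 ± 0.13 in carotid body, 10.94 ± 0.30 in adrenal medulla and 6.87 ± 0.22 in ganglion (SD, n = 3, 4 and 4). It was 7.39-fold lower in carotid body than in the medulla (limma adjusted p = 4.56e-07), 2.28-fold higher in carotid body than in ganglion and 16.8-fold higher in adrenal medulla than in ganglion. Plcb3, another enzyme of this class, averaged 10.20 ± 0.57 in carotid body, 9.13 ± 0.09 in adrenal medulla and 12.06 ± 0.30 in ganglion, the reverse order. Plce1, a Ras-regulated phospholipase C, was 8.64-fold higher in carotid body than in the medulla and 7.33-fold lower in adrenal medulla than in ganglion. Gna14, a Gq-class alpha subunit, was 3.71-fold lower in carotid body than in the medulla and 3.45-fold higher in adrenal medulla than in ganglion, and Plcg2 was 2.03-fold higher in carotid body than in ganglion.

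Of 6 measured genes of store-operated calcium entry and inositol trisphosphate receptors 0 were called in carotid body against the medulla. Itpr2, a calcium release channel of the endoplasmic reticulum, was the 1 gene called in each comparison with ganglion, 3.78-fold higher in carotid body (8.93 ± 0.02 against 7.01 ± 0.31, limma adjusted p = 6.47e-06) and 4.02-fold higher in adrenal medulla (9.02 ± 0.20, limma adjusted p = 1.28e-06). Like Trpc5, Itpr2 was higher in carotid body and adrenal medulla than in ganglion.

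Among 10 genes for proteins that bind TRPC channels, Cav1, the coat protein of caveolae, was 41.2-fold higher in carotid body than in the medulla, 10.1-fold higher in carotid body than in ganglion and 4.07-fold lower in adrenal medulla than in ganglion. Fibroblast genes had the same order, with list means of 13.89 ± 0.08 in carotid body, 8.48 ± 0.05 in adrenal medulla and 10.38 ± 0.11 in ganglion, and 7 of 7 were higher in carotid body in both of its comparisons. Adipocyte genes had this order too, with 5 of 6 higher in carotid body in both. The smooth muscle and pericyte list mean was also highest in carotid body, and the endothelial list mean was highest in adrenal medulla. The endothelial list was split between these organs: of its 8 members, 3 were called in favour of carotid body and 4 in favour of the medulla. The part of these cell types in the Cav1 differences was not tested. Slc9a3r1, which encodes the scaffold NHERF1, was 4.04-fold lower in carotid body than in ganglion and 7.41-fold lower in adrenal medulla than in ganglion. Its relative Slc9a3r2 went the other way, 2.22-fold and 2.27-fold higher in the same comparisons. Fkbp4, an immunophilin, was 2.96-fold lower in carotid body than in ganglion, and Rnf24 2.00-fold lower in adrenal medulla than in ganglion. In all, carotid body had 1 gene higher and 0 lower than the medulla, and 2 higher and 2 lower than ganglion, while adrenal medulla had 1 higher and 3 lower than ganglion.

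Of 9 measured genes whose proteins bind ASIC channels, 3 were called lower and 0 higher in carotid body than in ganglion, and 3 lower and 0 higher in adrenal medulla than in ganglion, with 6 not called in each. Of all genes, 8.28% and 7.50% were lower in these comparisons, and of those above the bound 14.0% and 12.7%. The 10 neuron genes were lower in both, and their part in these differences was not tested. Stom, the membrane protein stomatin, averaged 10.56 ± 0.47 in carotid body, 12.17 ± 0.14 in adrenal medulla and 13.61 ± 0.35 in ganglion (SD, n = 3, 4 and 4). It was 8.30-fold lower in carotid body than in ganglion (limma adjusted p = 3e-06), 3.05-fold lower in carotid body than in the medulla and 2.72-fold lower in adrenal medulla than in ganglion. Dlg4, the synaptic scaffold PSD-95, was 2.98-fold lower in carotid body and 2.68-fold lower in adrenal medulla than in ganglion. Stoml1, a stomatin-like protein, was 2.92-fold and 3.61-fold lower in these comparisons.

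**Figure D4:**
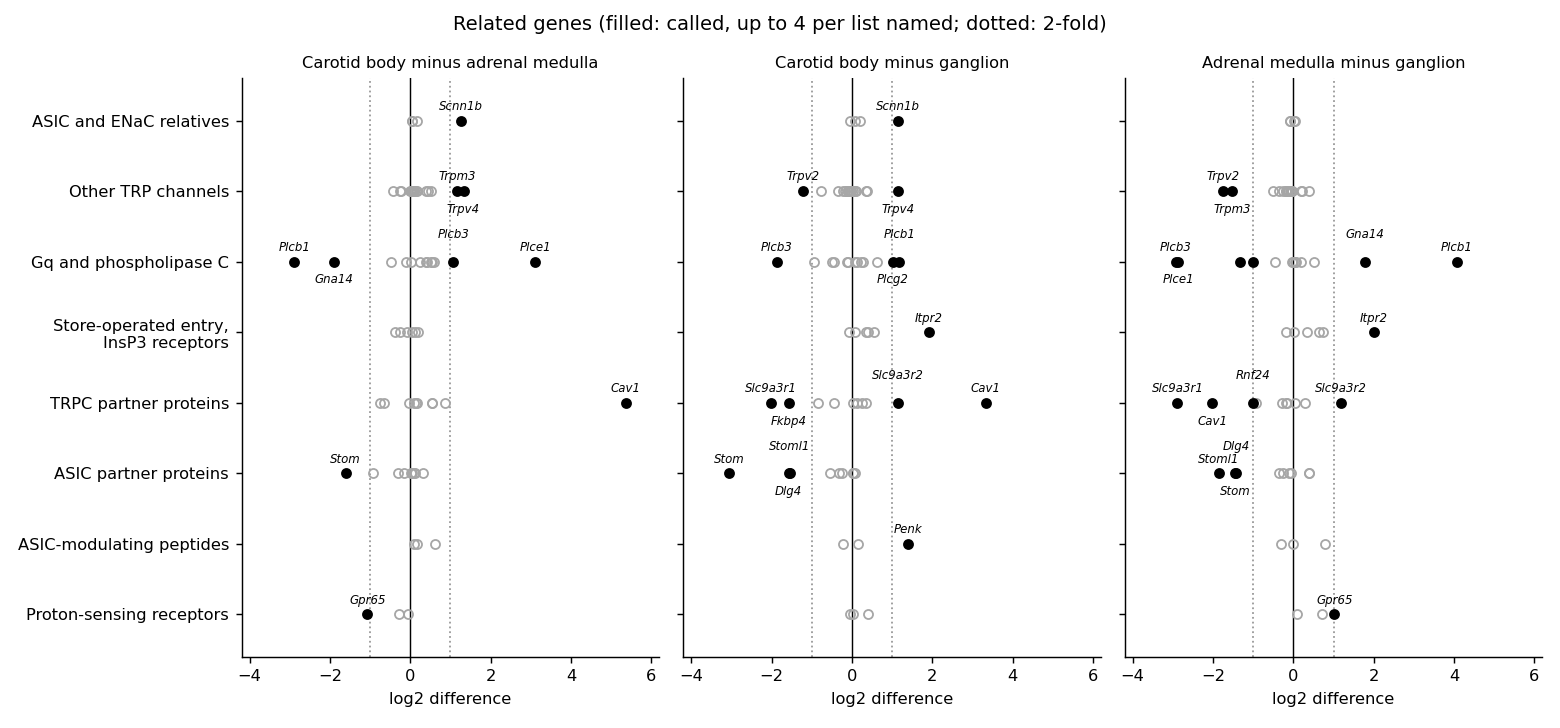
Differences between tissues (log2, horizontal axis) of the related genes, by list (rows): carotid body over adrenal medulla, carotid body over ganglion, and adrenal medulla over ganglion. Each point is a gene, filled where it was called, with up to 4 called genes of a list named, and dotted lines mark 2-fold. Cav1 lies farthest to the right in the first 2 panels and Plcb1 in the third.

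Of 20 measured genes of other transient receptor potential channels, 7 were above the bound in at least 1 tissue. Trpv4, a channel opened by osmotic and mechanical stimuli, was at least 2.50-fold higher in carotid body than in the medulla (6.72 ± 0.17 against 5.40 ± 0.05, with 1 of 4 adrenal medulla arrays under the bound, limma adjusted p = 8.34e-07) and 2.20-fold higher in carotid body than in ganglion. Trpm3, a heat- and steroid-sensitive channel, was at least 2.23-fold higher in carotid body than in the medulla and at least 2.86-fold lower in adrenal medulla than in ganglion. Trpv2 was 2.33-fold lower in carotid body than in ganglion and 3.35-fold lower in adrenal medulla than in ganglion. The other 17 of the 20 were not called in any comparison. Scnn1b, the beta subunit of the epithelial sodium channel and a relative of the ASIC genes, was above the bound in carotid body only, at 6.23 ± 0.60, and was at least 1.85-fold higher there than in the medulla (limma adjusted p = 0.0012) and at least 1.72-fold higher than in ganglion (limma adjusted p = 0.00157). Of 3 proton-sensing receptors, Gpr65 was 2.09-fold lower in carotid body than in the medulla and 2.03-fold higher in adrenal medulla than in ganglion. Of 3 peptide genes whose products modulate ASIC channels, Penk, the enkephalin precursor, was at least 2.48-fold higher in carotid body than in ganglion.

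The genes most like each channel gene were named by Pearson's r over the 11 arrays, among 12514 protein-coding genes above the bound in at least 1 tissue. The arrays fall into 3 tissues, so a gene with the same tissue means scores high, and no test was made. For Trpc5 they were C1rb (r = 0.996), Entpd1 (0.993) and Msrb3 (0.993). Asic2 was closest to Slc18a2, the vesicular monoamine transporter (0.998), then Aldoc (0.998) and Bmerb1 (0.997). Asic4 was closest to Agtr2, an angiotensin II receptor (0.997), C1ql1 (0.994) and Olfr574 (0.994). Trpc1 was closest to Kctd16 (0.986), Rorb (0.984) and Epb41l3 (0.981), and Trpc6 to Hace1 (0.994), Vwa7 (0.988) and Fcho1 (0.987). Trpc7 was closest to Mrpl35 (0.994), Mrpl16 (0.994) and Tdrkh (0.992).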

How the data were processed

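Total RNA of 11 tissue pools was hybridised to Affymetrix mouse transcriptome arrays, per the labels. The deposited log2 values were made by the authors with RMA (background correction, normalisation and probe summary) using the Expression Console software, per the submitters' processing notes, whose version is not given in the sources used here. The base of the log is taken as 2 because RMA uses it. Array maxima of 19.65 to 19.93 exceed a 16-bit scan, so a rescaling that no source names is possible, and folds are on the deposited scale. Raw scans were not analysed here.

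Of 65956 transcript clusters, 30604 pair with 1 symbol, 2146 with several and 33206 with none in the array annotation. Symbols were updated through Entrez identifiers, and the brightest cluster of each gene gave 30142 genes, 29527 of them matched in RefSeq GRCm38.p6. Each channel gene had 1 cluster. Tissue was the only factor in 1 limma fit (limma 3.58.1, R 4.3.3), with Benjamini-Hochberg adjustment over all genes, tested on simulated data. A fold is "at least" where arrays of the dimmer tissue lay under the bound and were set to it. Related genes are named by rule: up to 4 called genes with the largest difference per list and comparison, and the 3 most correlated genes per channel gene. The members and lists were chosen with earlier results of these data known. No batch is given in the labels. The number of arrays limits the precision. Alternatives covered scaling, dim genes, gene type, array weights, variance model, the replicate number as a block, fits on 2 tissues, control features, clusters per gene and leaving out each array.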

Additional observations from a re-analysis of the deposited data

Results flagged for a closer look

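In groups of 4 arrays, a single array stood apart from the others by Dixon's 95% criterion in 5 of 94 groups. This is close to the 1 in 20 that chance gives, and none of the 5 was among the 8 channel genes. The 94 include Asic3 in adrenal medulla, whose 4 equal values could not be tested. Asic5 was 4.36 on adrenal medulla replicate 1 and 4.46, an identical value, on the other 3, all under the bound. Plcg2 was 6.32 on adrenal medulla replicate 1, against 6.24 to 6.25. Penk was 5.13 on ganglion replicate 3, against 5.63 to 5.65. Vwa7 was 5.62 on adrenal medulla replicate 3, against 5.66 to 5.67. Bmerb1 was 7.30 on adrenal medulla replicate 4, against 7.98 to 8.05.

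The array feature that names Trpc2 together with Xndc1 and Xntrpc was left out of the comparisons because it carries several symbols. It read 6.28 in carotid body, 6.28 in adrenal medulla and 6.28 in ganglion, above the bound in each. The value was the same on all 11 arrays, so it gives no difference between tissues and is not read as expression.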

How the results depend on the processing

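The channel genes called in each comparison and direction kept their number under all 21 alternatives. With protein-coding genes only (18912 tested), carotid body had 1003 genes above the medulla and 1015 above ganglion, against 1828 and 1691 with all genes. Genes below were 1214 and 1971, against 1492 and 2496, so the higher calls fell by a larger share than the lower calls. Other counts of called genes stayed within 1.5 times. Leaving out 1 array gave 1748 to 2057 genes higher and 1380 to 1683 lower for carotid body against adrenal medulla, 1440 to 2104 and 2298 to 2674 for carotid body against ganglion, and 1618 to 1800 and 2217 to 2358 for adrenal medulla against ganglion. Median centring moved the median difference of all genes between carotid body and adrenal medulla to -0.10, against 0.05. Deviations of same-numbered arrays of different tissues correlated at -0.22 to 0.35 over 10 pairs, highest for replicate 2 of carotid body and ganglion. Differently numbered arrays were not compared and the labels do not say, so whether the numbers pair the samples cannot be told. With the replicate number as a block, carotid body had 1795 genes above and 1507 below the medulla, 1619 and 2496 against ganglion, and 1729 and 2257 for adrenal medulla against ganglion. Over all alternatives, Trpc5 stood 4.76 to 5.24 higher in carotid body than in ganglion, and Asic4 -2.88 to -2.67 relative to adrenal medulla. Trpc4 and Asic3 have no value where dim genes were left out, and levels near background limit what can be said of Trpc4, Asic3 and Asic5.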

Other observations

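The array feature that names Trpc5os and Gm15070, a transcript annotated within the Trpc5 locus, carries 2 names and was left out of the comparisons. It averaged 4.58 ± 0.13 in carotid body (n = 3), 4.51 ± 0.02 in adrenal medulla and 4.50 ± 0.01 in ganglion (SD, n = 4 each), under the bound in all of them. Trpc5 itself was above the bound on every carotid body and adrenal medulla array. In ganglion its mean of 5.45 was at the bound, with 3 of 4 arrays under it.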
